A study of Mus musculus with 8 samples.

Results

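The 9 genes described here, *Gyg*, *Ugp2*, *Gys2*, *Gbe1*, *Pygl*, *Phka2*, *Ppp1r3b*, *Ppp1r3c* and *Ppp1r3g*, encode enzymes and regulators of glycogen in the liver. They were found by symbol in the table of 24940 genes, and all 9 were counted well enough to be tested among 12340 genes. Liver polyA RNA was sequenced from 4 *FxrKO* and 4 *Bcl6LKOFxrKO* males of the C57BL/6 strain. All 8 mice were homozygous for the *Bcl6* allele flanked by loxP sites and for the whole-body knockout of *Fxr* (*Nr1h4*), which encodes the bile acid receptor FXR. The *Bcl6LKOFxrKO* mice also carried Albumin-Cre, whose promoter is active in hepatocytes, so that the transcriptional repressor BCL6 was removed in these cells. Mice with intact *Fxr* were not analysed here. The study worked with mice that had free access to food or had been fasted for 4 hours, but the state of each of these livers, the hour at which it was taken and the age of the mice are not given in the sources used here.

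The liver stores glucose as glycogen after a meal and releases it between meals. UDP-glucose is made by UGP2, joined into chains on the primer glycogenin by glycogen synthase and branched by GBE1, while glycogen phosphorylase shortens the chains again. Synthase is active when dephosphorylated and phosphorylase when phosphorylated. The PPP1R3 subunits tether protein phosphatase 1 to the glycogen particle, and phosphorylase kinase acts in the opposite direction on phosphorylase.

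The libraries held between 7586241 and 11839503 counts on genes. *Bcl6* was at 49.6 ± 19.4 CPM (counts scaled with TMM factors to a common library size) in *FxrKO* livers and 7.44 ± 3.24 in *Bcl6LKOFxrKO* livers (SD, n = 4), with no overlap between the genotypes. *Nr1h4* was still counted, at 60.0 ± 2.46 CPM in *FxrKO* and 43.5 ± 3.69 CPM in *Bcl6LKOFxrKO* livers, with no overlap and a log2 fold change of -0.46 (edgeR adjusted p = 0.00497). Counts over a whole gene do not show whether the deleted stretch is missing. Of the 10 hepatocyte markers, *Alb* took 4.04% to 5.16% of all counts in *FxrKO* livers and 11.9% to 13.2% in *Bcl6LKOFxrKO* livers. The summed level of 9 stellate cell and fibroblast markers was 227 to 318 CPM in *FxrKO* and 458 to 570 CPM in *Bcl6LKOFxrKO* livers. Upward, 6 of the 9 passed the test, against 16.2% of all genes tested. In bulk liver, fewer cells of a type and less RNA per cell cannot be told apart, and the part of cell composition in the differences below was not tested.

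Of the 9 glycogen genes, 3 fell in *Bcl6LKOFxrKO* livers. These were *Pygl*, the liver glycogen phosphorylase, *Ugp2*, which makes the donor of glucose units, and *Ppp1r3b*, the main phosphatase targeting subunit of the liver. A gene was called where edgeR's quasi-likelihood test gave a p under 0.05 after Benjamini-Hochberg adjustment over all 12340 genes, and log2FC is the log2 fold change of *Bcl6LKOFxrKO* against *FxrKO* livers, given with its standard error (SE). Of all genes tested, 13.5% were called lower and 16.2% higher, that is 1665 and 1994 genes. Scaling by total counts alone turned this split to 2949 lower and 1404 higher and called 5 of the 9 lower. None of the 9 was called higher by edgeR, DESeq2 or limma voom (0 in each), and 1 was higher and 5 were lower at an unadjusted p under 0.05 in edgeR. At that unadjusted threshold 21.8% of all genes tested were higher, and the share that was lower was not counted. The genotypes did not overlap for 4 of the 9 genes, 3 lower and 1 higher, against 31.3% of all genes tested (15.2% lower and 16.1% higher). The median log2FC was -0.81 over the 9 genes and 0.01 over all genes tested. The 9 genes together took 1276 to 1570 CPM in *FxrKO* livers and 797 to 948 CPM in *Bcl6LKOFxrKO* livers. They lie on 9 different chromosomes.

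**Figure D1:**
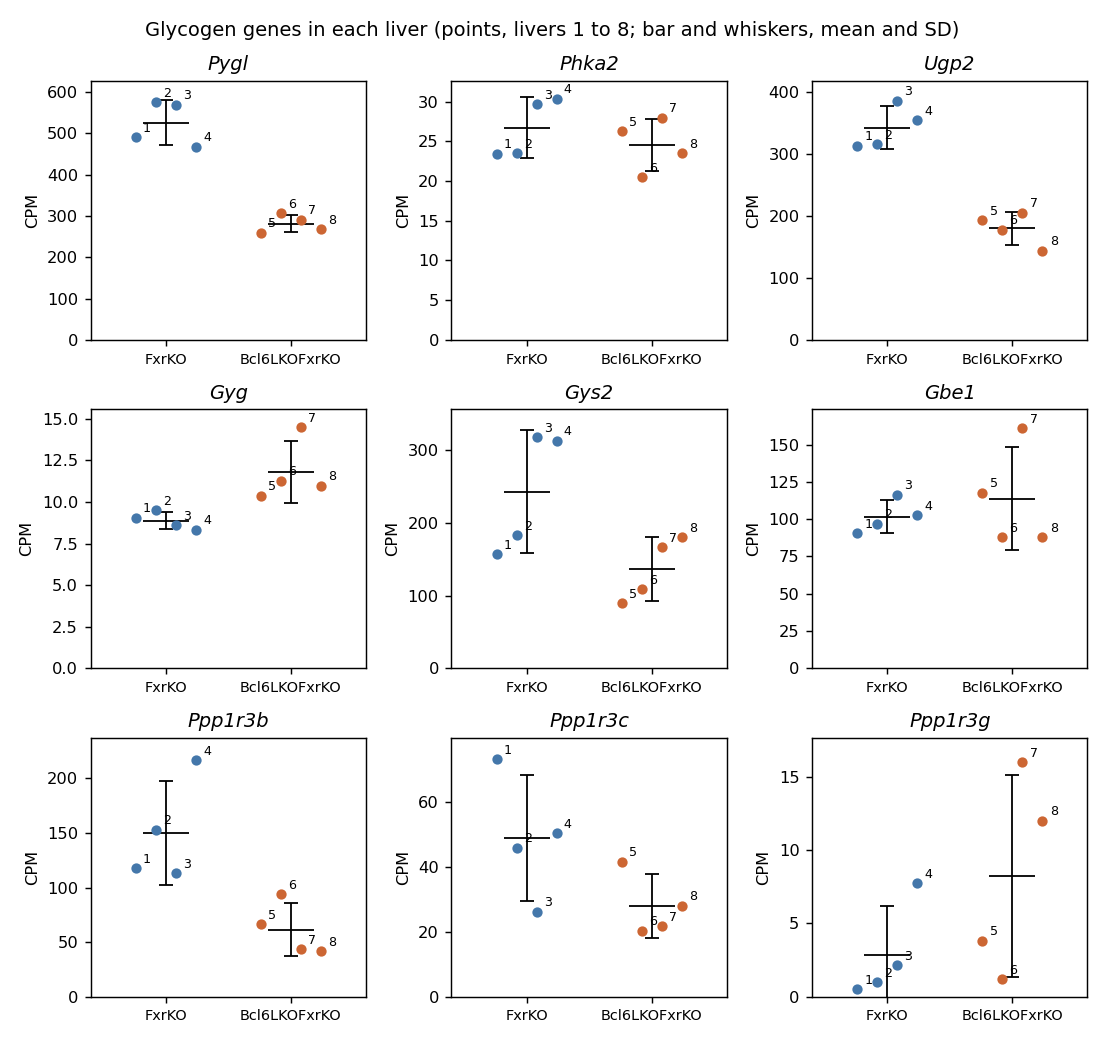
CPM (vertical axes, each from 0) of the 9 glycogen genes in each liver, numbered 1 to 4 for *FxrKO* and 5 to 8 for *Bcl6LKOFxrKO*, with the mean and SD of each genotype. The genotypes separate for *Pygl*, *Ugp2* and *Ppp1r3b*, which were lower in *Bcl6LKOFxrKO* livers, and for *Gyg*, which was higher without passing the test, while livers 3, 4, 7 and 8 stand above the other livers of their genotype for *Gys2* and *Ppp1r3g*.

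*Pygl* (NM_133198, mm10 chr12:70190815-70227683, minus strand) encodes the phosphorylase that releases glucose 1-phosphate from liver glycogen. It was at 491, 576, 569 and 468 CPM in *FxrKO* livers 1 to 4 and at 259.9, 306, 291 and 268 CPM in *Bcl6LKOFxrKO* livers 5 to 8. The livers of each genotype lay close together, and every *Bcl6LKOFxrKO* liver was below every *FxrKO* liver. The log2FC was -0.90 with an SE of 0.12 and an adjusted p of 9.79e-05 in edgeR, a level 46.5% lower. The exact permutation p of 0.0286 is the smallest that 4 livers against 4 can give in a two-sided test.

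*Phka2* (NM_001358966, chrX:160502162-160598878, plus strand) encodes the liver form of the regulatory alpha subunit of phosphorylase kinase. Its levels were 23.4, 23.5, 29.7 and 30.4 CPM in *FxrKO* livers and 26.3, 20.5, 28.0 and 23.5 CPM in *Bcl6LKOFxrKO* livers. The ranges overlapped, with liver 6 alone below every *FxrKO* liver. The difference was -0.12 on the log2 scale (SE 0.14, edgeR adjusted p = 0.549), smaller than the spread between livers. Thus, of the 2 breakdown genes among the 9, the enzyme changed and the kinase subunit did not pass the test.

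Of the 4 synthesis genes, *Ugp2* passed the test. *Ugp2* (NM_139297, chr11:21321126-21370629, minus strand) encodes UDP-glucose pyrophosphorylase, which makes the activated glucose that both glycogen synthesis and glucuronidation use. *FxrKO* livers had 314, 316, 386 and 355 CPM, and *Bcl6LKOFxrKO* livers had 193, 178, 206 and 144 CPM. All 4 *Bcl6LKOFxrKO* livers were below the lowest *FxrKO* liver. The log2FC was -0.93 with an SE of 0.13 and an adjusted p of 2.10e-04 in edgeR, or 47.4% lower, with an exact permutation p of 0.0286. The gene's annotated span meets that of *Vps54* on the other strand by a few bases, and the stated counting options name no strand.

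*Gys2* (NM_145572, chr6:142422613-142473109, minus strand) encodes the liver glycogen synthase, which lengthens the chains. Its levels were 157, 183, 318 and 313 CPM in *FxrKO* livers 1 to 4 and 89.3, 108, 167 and 180.1 CPM in *Bcl6LKOFxrKO* livers 5 to 8. Each genotype fell into a low pair (livers 1 and 2, livers 5 and 6) and a high pair (livers 3 and 4, livers 7 and 8), so that the high pair of *Bcl6LKOFxrKO* livers overlapped the low pair of *FxrKO* livers. The log2FC of -0.83 (SE 0.29) missed the threshold in edgeR at an adjusted p of 0.0592, and the exact permutation p was 0.114. DESeq2 gave nearly the same fold change, -0.84, with an adjusted p of 0.00985.

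*Gbe1* (NM_028803, chr16:70313949-70569720, plus strand), the branching enzyme, was at 90.4, 96.8, 117 and 103 CPM in *FxrKO* livers and at 118, 88.0, 161 and 88.1 CPM in *Bcl6LKOFxrKO* livers. In *Bcl6LKOFxrKO* livers 5 and 7 it was higher and in livers 6 and 8 lower than in any *FxrKO* liver. The log2FC was 0.16 with an SE of 0.18 and an adjusted p of 0.528 in edgeR, and without liver 7 it turned to -0.051. *Gyg* (NM_013755, chr3:20122083-20155116, minus strand) encodes glycogenin, the protein primer on which a glycogen particle starts. It was at 9.05, 9.50, 8.60 and 8.33 CPM in *FxrKO* livers and at 10.4, 11.3, 14.5 and 11.0 CPM in *Bcl6LKOFxrKO* livers. The genotypes did not overlap and the exact permutation p was 0.0286, but the log2FC of 0.41 (SE 0.15) had an adjusted p of 0.0595 in edgeR. Without liver 8 that adjusted p was 0.0488.

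Of the 3 targeting subunits, only *Ppp1r3b* passed the test in edgeR, and *Ppp1r3g* varied most among livers of one genotype. *Ppp1r3b* (NM_177741, chr8:35375741-35388137, plus strand) encodes the subunit known as GL, which couples synthase to the phosphatase and binds active phosphorylase. It was at 118, 153, 113 and 217 CPM in *FxrKO* livers and at 66.4, 93.8, 43.3 and 42.0 CPM in *Bcl6LKOFxrKO* livers. The highest *Bcl6LKOFxrKO* liver, liver 6, was below the lowest *FxrKO* liver, liver 3. Its log2FC of -1.29 (SE 0.30, edgeR adjusted p = 0.0108), or 59.2% lower, was the lowest among the 9 genes, and the exact permutation p was 0.0286. Leaving out single livers moved the adjusted p between 0.00118 and 0.0496, the highest without liver 8.

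*Ppp1r3c* (NM_016854, chr19:36731731-36736604, minus strand) encodes the subunit called protein targeting to glycogen. *FxrKO* livers had 73.1, 45.9, 26.1 and 50.2 CPM, and *Bcl6LKOFxrKO* livers had 41.6, 20.3, 21.6 and 28.0 CPM. Liver 3 among the *FxrKO* livers lay within the *Bcl6LKOFxrKO* range, and livers 5 and 8 among the *Bcl6LKOFxrKO* livers lay within the *FxrKO* range. The log2FC was -0.81 (SE 0.32, edgeR adjusted p = 0.0917, exact permutation p = 0.0857). It passed the threshold without liver 3 (adjusted p = 0.0135), without liver 5 (0.0286) and in DESeq2 (0.0229).

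*Ppp1r3g* (NM_029628, chr13:35967906-35970388, plus strand) encodes a subunit whose liver transcript is known to follow the cycle of fasting and feeding. It was the least counted of the 9, with 5, 8, 20 and 82 counts in *FxrKO* livers and 38, 10, 164 and 132 counts in *Bcl6LKOFxrKO* livers. These are 0.52, 1.0, 2.15 and 7.76 CPM against 3.83, 1.21, 16.0 and 12.0 CPM, where 3 counts correspond to 0.272 to 0.375 CPM. Livers 7 and 8 were above every *FxrKO* liver, and livers 5 and 6 lay within the *FxrKO* range. Within one genotype the highest liver was 14.9 times (*FxrKO*) and 13.2 times (*Bcl6LKOFxrKO*) the lowest, so the log2FC of 1.5 came with an SE of 0.95 (adjusted p = 0.284 from edgeR, exact permutation p = 0.20). Without single livers the log2FC ranged from 0.98 to 2.76, with no adjusted p under 0.0758.

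The genes also differed in how evenly they were expressed among livers of one genotype. The coefficient of variation was 10.4% in *FxrKO* and 7.53% in *Bcl6LKOFxrKO* livers for *Pygl*, and 10.1% and 14.8% for *Ugp2*. It was 34.8% and 32.4% for *Gys2*, and 31.8% and 39.7% for *Ppp1r3b*. The median over all genes tested was 13.8% in *FxrKO* and 17.8% in *Bcl6LKOFxrKO* livers, so that *Gys2* and the targeting subunits varied more than the median gene and *Pygl* and *Ugp2* less in both genotypes.

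**Figure D2:**
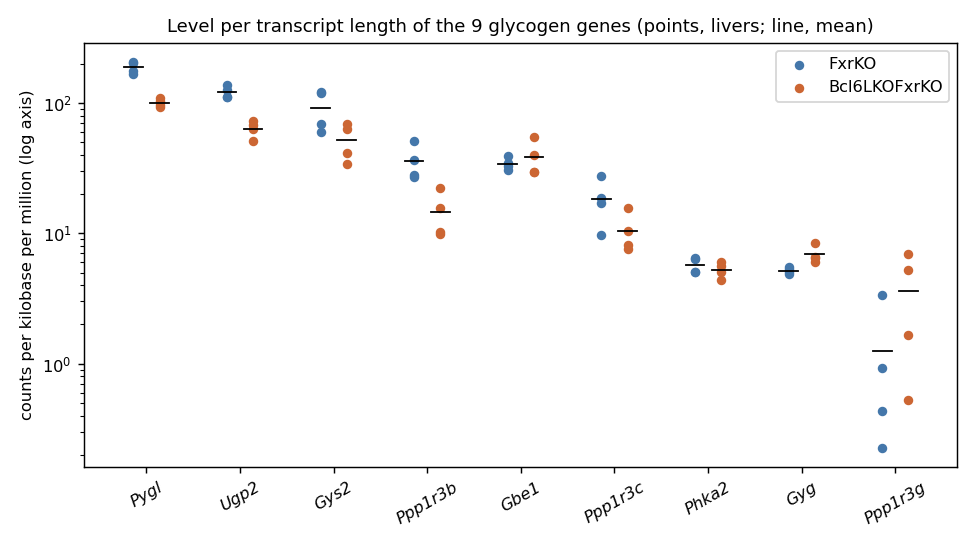
Level per transcript length (CPM per kilobase of transcript, log axis) of the 9 genes in each liver, ordered by their mean in *FxrKO* livers, with lines at the genotype means. *Pygl*, *Ugp2* and *Gys2* stand highest in both genotypes and *Ppp1r3g* lowest, with its livers spread most widely.

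Levels of different genes were compared per kilobase of the transcript length deposited with the counts. In *FxrKO* livers *Pygl* was highest at 188 ± 19.5 CPM per kilobase (SD, n = 4), followed by *Ugp2* at 121 ± 12.2, *Gys2* at 92.0 ± 32.0, *Ppp1r3b* at 35.6 ± 11.3 and *Gbe1* at 34.2 ± 3.74. *Ppp1r3c* came next at 18.3 ± 7.21, then *Phka2* at 5.73 ± 0.81, *Gyg* at 5.18 ± 0.30 and *Ppp1r3g* at 1.24 ± 1.45. The livers' ranges overlapped between *Ugp2* and *Gys2*, between *Ppp1r3b* and *Gbe1* and between *Phka2* and *Gyg*, so the order within these pairs is not set beyond the spread. In *Bcl6LKOFxrKO* livers the first 3 kept their places, at 100.5 ± 7.57 for *Pygl*, 63.6 ± 9.43 for *Ugp2* and 51.6 ± 16.7 for *Gys2*. *Gbe1*, at 38.3 ± 11.6, then stood above *Ppp1r3b*, at 14.6 ± 5.78, with no overlap between their ranges, and *Gyg*, at 6.88 ± 1.08, stood above *Phka2*, at 5.26 ± 0.70. *Ppp1r3c* was at 10.4 ± 3.65 and *Ppp1r3g* at 3.58 ± 2.99 on the same scale. Here the ranges of neighbours overlapped from *Ugp2* to *Gbe1*, from *Ppp1r3b* to *Gyg* and between *Phka2* and *Ppp1r3g*.

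Ratios of 2 genes within a liver do not depend on the scaling between livers. The log2 ratio of *Pygl* to *Gys2*, breakdown against synthesis enzyme, per transcript length was 1.56, 1.57, 0.76 and 0.50 in *FxrKO* livers 1 to 4. It was 1.45, 1.41, 0.72 and 0.49 in *Bcl6LKOFxrKO* livers 5 to 8. The ratio was thus nearly the same in both genotypes, with means that differed by -0.08, against an SD of 0.55 and 0.49 within them. It was high in livers 1, 2, 5 and 6, where phosphorylase transcripts were between 2.66 and 2.97 times as many as synthase transcripts, and low in livers 3, 4, 7 and 8, where they were between 1.40 and 1.69 times as many. The log2 ratio of *Gbe1* to *Gys2*, by contrast, was -0.97, -1.09, -1.62 and -1.78 in *FxrKO* livers and 0.23, -0.47, -0.22 and -1.20 in *Bcl6LKOFxrKO* livers. Only liver 8 of the *Bcl6LKOFxrKO* livers lay within the *FxrKO* range of that ratio, and the means differed by 0.95.

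**Figure D3:**
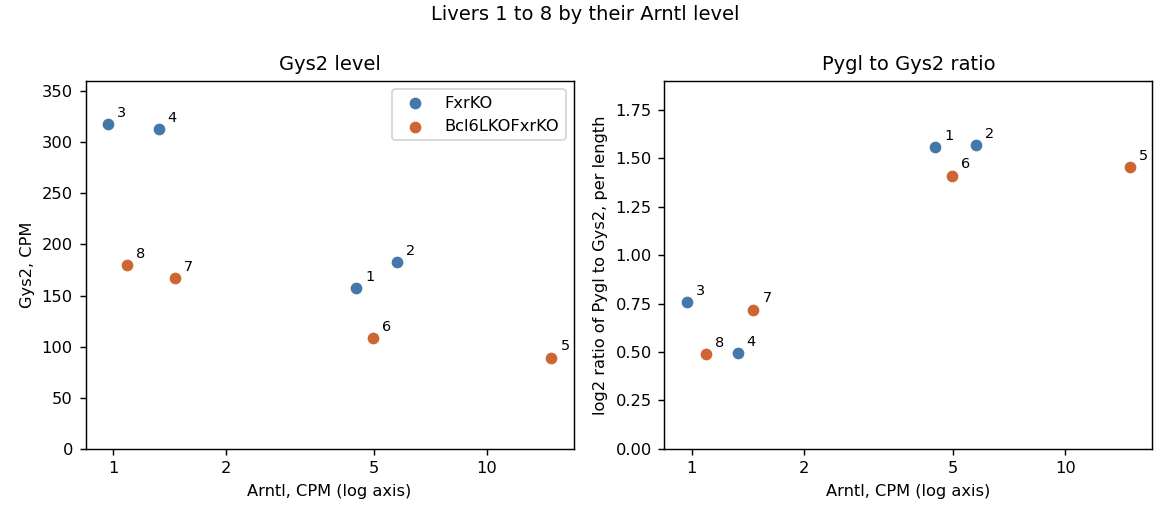
*Gys2* level (CPM, left, axis from 0) and log2 ratio of *Pygl* to *Gys2* per transcript length (right) against the *Arntl* level (CPM, log axis) of livers 1 to 8, coloured by genotype. Livers 3, 4, 7 and 8, at 0.97 to 1.46 CPM of *Arntl*, have the higher *Gys2* of their genotype and ratios of 0.49 to 0.76, and the other 4 livers have ratios of 1.41 to 1.57.

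The same livers stood apart in the clock gene *Arntl* (BMAL1), an activator whose liver transcript cycles over the day. *Arntl* was at 4.47, 5.75, 0.97 and 1.32 CPM in *FxrKO* livers and at 14.9, 4.98, 1.46 and 1.09 CPM in *Bcl6LKOFxrKO* livers, and it was picked after it was seen to part the livers as *Gys2* did. The labels give no harvest time and name no batch, but the title of each sample holds a number. In the order of these numbers, livers 5, 1, 6 and 2 came first and livers 7, 3, 8 and 4 last, so that the split of *Arntl* and *Gys2* follows the title number. Livers 2, 7, 3, 8 and 4 have consecutive numbers, so that livers 2 and 7, on either side of the split, differ by 1. Liver 2 came 25 numbers after liver 6. Liver 5, with the highest *Arntl* and the lowest *Gys2* of all livers, came 128 numbers before liver 1. What the numbers stand for is not given. The part of sampling hour or of anything else that goes with the title number was not tested. When the level of *Arntl* was added to the edgeR fit beside genotype, 0.178% of all genes tested were called on the *Arntl* term. *Gys2* was the only one of the 9 glycogen genes among these 22 genes, which also held 7 of the 17 listed clock genes, *Arntl* itself included. The fitted change of *Gys2* was -0.41 on the log2 scale for each log2 unit of *Arntl*, a value that follows from how *Arntl* was picked and is given as a description. The clock list was chosen with these livers in view, and a split of 4 livers against 4 can carry any other difference between them.

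In the fit with *Arntl*, 29.3% of all genes tested were called on genotype (13.2% lower), and 5 of the 9 glycogen genes were called lower. *Gys2* then had a genotype log2FC of -0.67 with an SE of 0.13 against 0.29 without the term, and an adjusted p of 0.00279. Because *Arntl* was picked for parting the livers as *Gys2* did, the smaller SE and the call of *Gys2* follow from that choice and are no support for a difference between the genotypes. *Ppp1r3c* was at -0.91 (adjusted p = 0.0271), *Ppp1r3b* at -1.39 (0.0119), *Ugp2* at -0.92 (4.98e-04) and *Pygl* at -0.90 (2.30e-04), all from edgeR. *Gyg*, at 0.43 (adjusted p = 0.062), and *Ppp1r3g*, at 1.78 (0.108), did not pass.

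**Figure D4:**
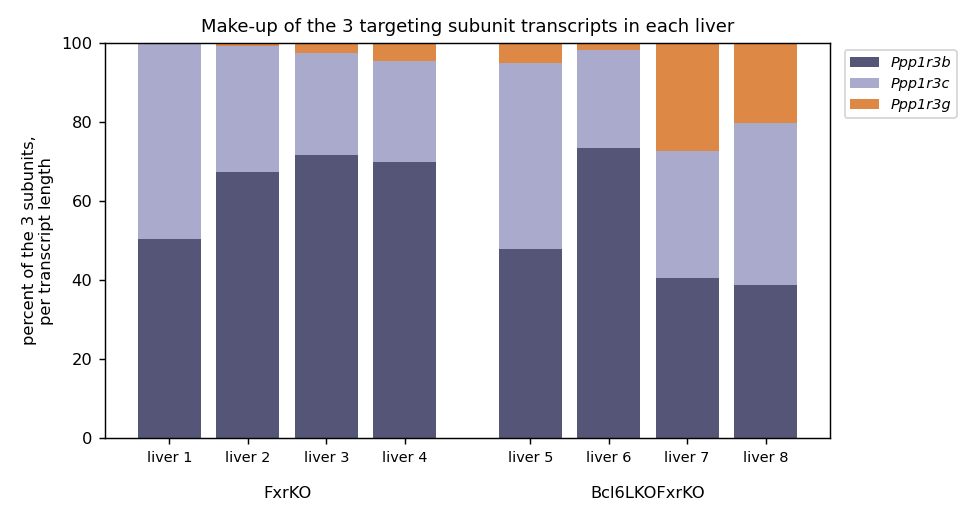
Share (percent, vertical axis from 0 to 100) of *Ppp1r3b*, *Ppp1r3c* and *Ppp1r3g* in the sum of the 3 targeting subunit transcripts per transcript length, in each of livers 1 to 8. *Ppp1r3g* reaches 27.4% and 20.3% in *Bcl6LKOFxrKO* livers 7 and 8 and stays at or under 5.04% in the other 6 livers.

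The make-up of the targeting subunit transcripts varied widely among livers of one genotype. Per transcript length, *Ppp1r3b* was 50.3%, 67.3%, 71.5% and 69.9% of the 3 subunits in *FxrKO* livers and 47.8%, 73.3%, 40.6% and 38.8% in *Bcl6LKOFxrKO* livers. *Ppp1r3g* made up 0.41%, 0.81%, 2.48% and 4.58% in *FxrKO* livers and 5.04%, 1.73%, 27.4% and 20.3% in *Bcl6LKOFxrKO* livers. In livers 7 and 8, which had the 2 lowest *Ppp1r3b* levels, *Ppp1r3g* was therefore 20.3% or more of the subunit transcripts. *Ppp1r3c* varied between 25.6% and 49.3% in *FxrKO* and between 25.0% and 47.2% in *Bcl6LKOFxrKO* livers. All 3 shares overlapped between the genotypes.

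Promoters of *Pygl*, *Ugp2* and *Ppp1r3c* are shown for their base content and motifs. RefSeq windows on GRCm38.p6, from 250 bases before the start of a transcript to 50 bases from it on, matched 7 of the 9 genes (8 windows); *Gys2* and *Ppp1r3b* had none. For *Pygl* (chr12:70227634-70227933, minus strand) and *Ugp2* (chr11:21370580-21370879, minus strand), the 2 genes with the smallest adjusted p, the sequence runs 5′ to 3′ on the strand of the gene and the 50 bases from the start on are in capitals.
Pygl: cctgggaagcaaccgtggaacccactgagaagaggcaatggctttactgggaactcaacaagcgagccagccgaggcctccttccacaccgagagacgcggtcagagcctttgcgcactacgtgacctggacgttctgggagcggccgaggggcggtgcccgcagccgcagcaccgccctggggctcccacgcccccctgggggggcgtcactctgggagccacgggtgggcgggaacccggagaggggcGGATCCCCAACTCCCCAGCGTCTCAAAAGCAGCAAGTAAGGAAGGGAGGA
Ugp2: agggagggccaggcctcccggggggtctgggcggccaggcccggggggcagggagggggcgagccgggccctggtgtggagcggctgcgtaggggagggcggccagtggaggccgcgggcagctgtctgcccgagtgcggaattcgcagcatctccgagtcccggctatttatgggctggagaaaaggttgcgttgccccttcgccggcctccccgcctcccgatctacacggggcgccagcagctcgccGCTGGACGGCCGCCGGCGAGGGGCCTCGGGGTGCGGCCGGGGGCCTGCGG
For *Ppp1r3c* (chr19:36736555-36736854, minus strand), the capitals mark an E-box, the motif that BMAL1 and CLOCK can bind, which begins 104 bases before the start.
Ppp1r3c: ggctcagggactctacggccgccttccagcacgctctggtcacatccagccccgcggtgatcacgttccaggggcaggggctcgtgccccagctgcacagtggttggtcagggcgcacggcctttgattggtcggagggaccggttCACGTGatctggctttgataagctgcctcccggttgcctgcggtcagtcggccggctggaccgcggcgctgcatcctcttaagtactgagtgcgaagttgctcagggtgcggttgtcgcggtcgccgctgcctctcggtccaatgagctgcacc
G and C made up 67% of the *Pygl* window, 76% of the *Ugp2* window and 65.3% of the *Ppp1r3c* window. On either strand, the E-box CACGTG was found in 2 of the 8 windows, those of *Ppp1r3c* and *Gyg*, and in 7.15% of 32851 windows of this length. Neither of these genes was called on the *Arntl* term (edgeR adjusted p = 0.78 for *Ppp1r3c* and 0.97 for *Gyg*). The BCL6 motif TTCCTAGAA, found in 0.411% of all windows, and an inverted repeat that FXR can bind (a full match, spaced by 1 base), found in 0.00913%, were in none of the 8. A match is a description of the letters and no evidence of binding, and these windows hold only a small part of the DNA that can control a gene.

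Around the 9 genes, 5 lists of other genes that make, break down, supply or signal to glycogen held 41 genes. Of these, 37 were tested, 4 rose and 4 fell, with a median log2FC of -0.10. Over all genes tested, 16.2% were called higher and 13.5% lower, the shares to set beside the counts of every list. No list was tested as a set. Among 10 other synthesis and breakdown enzymes, 3 rose and 1 fell. Of the 2 other phosphorylase isoforms, *Pygb*, the brain form, rose from 6.88 ± 1.34 to 17.9 ± 5.06 CPM (SD, n = 4; log2FC 1.37, SE 0.21, adjusted p = 3.64e-04 from edgeR). *Pygm*, the muscle form, went from 1.15 ± 0.39 to 2.10 ± 0.18 CPM (log2FC 0.84, edgeR adjusted p = 0.0461), a call that was lost in DESeq2 (0.076), with total counts alone, without the 50 most counted genes, with no filter, with the *Arntl* term and without any 1 of livers 2 to 8, with an adjusted p of up to 0.125. Both remained far below *Pygl* per transcript length, *Pygb* at 4.70 and *Pygm* at 0.74 against 100.5 CPM per kilobase in *Bcl6LKOFxrKO* livers. Thus *Pygl* fell while *Pygb* rose.

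*Gaa*, the lysosomal glucosidase that digests glycogen in autophagic vesicles, rose from 108 ± 4.11 to 163 ± 18.2 CPM (log2FC 0.59, edgeR adjusted p = 0.00134). The gene listed as *Pgm2*, a phosphoglucomutase on chromosome 4 that the table also gives the name *Pgm1*, was at 294 ± 13.1 and 231 ± 35.4 CPM (log2FC -0.35, adjusted p = 0.0473), with liver 8 inside the *FxrKO* range. Its call was lost without any 1 of livers 1 to 7, with an adjusted p of up to 0.125. The call was also lost with at least 10 counts in every liver (edgeR adjusted p = 0.0608) and with the *Arntl* term (0.0613).

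Beside the liver phosphorylase, 2 of the 6 genes listed for the entry and exit of glucose fell. *Slc37a4*, the transporter that carries glucose 6-phosphate into the endoplasmic reticulum, where glucose is released from it, fell from 228 ± 23.3 to 93.0 ± 20.5 CPM with no overlap (log2FC -1.30, SE 0.15, adjusted p = 4.74e-05 from edgeR). *Slc2a2*, the glucose transporter GLUT2 of the hepatocyte membrane, went from 176 ± 31.4 to 106 ± 31.3 CPM (log2FC -0.73, adjusted p = 0.0117). Liver 7, at 152 CPM of *Slc2a2*, lay within the *FxrKO* range, and the other 3 *Bcl6LKOFxrKO* livers lay below it. Without liver 8 the adjusted p was 0.059. *Slc37a4* and *Slc2a2* were the only genes of this list called by edgeR, which called 13.5% of all genes tested lower. The genes for glucose 6-phosphatase were not called. EdgeR, DESeq2 and limma voom called 0 of the 6 higher. At an unadjusted p under 0.05 in edgeR 1 was higher, against 21.8% of all genes tested.

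Of 11 genes for signals to glycogen, 1 rose and 1 fell, against 16.2% called higher and 13.5% lower over all genes tested. *Insr*, the insulin receptor, fell from 105 ± 12.9 to 71.1 ± 9.37 CPM (log2FC -0.57, edgeR adjusted p = 0.00511). *Prkaca*, the catalytic subunit of the kinase that glucagon activates, rose from 64.1 ± 5.98 to 91.7 ± 11.7 CPM (log2FC 0.52, edgeR adjusted p = 0.00595). Among 6 tested subunits of phosphorylase kinase other than *Phka2*, edgeR, DESeq2 and limma voom each called 0, and 0 had an unadjusted p under 0.05 in edgeR. Among the 4 tested of 7 other protein phosphatase 1 genes, the 3 tools also called 0, with 1 lower at an unadjusted p under 0.05. *Ppp1r3a*, the muscle targeting subunit, had 0 counts in all 8 livers, which allows up to 0.272 to 0.375 CPM per liver.

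**Figure D5:**
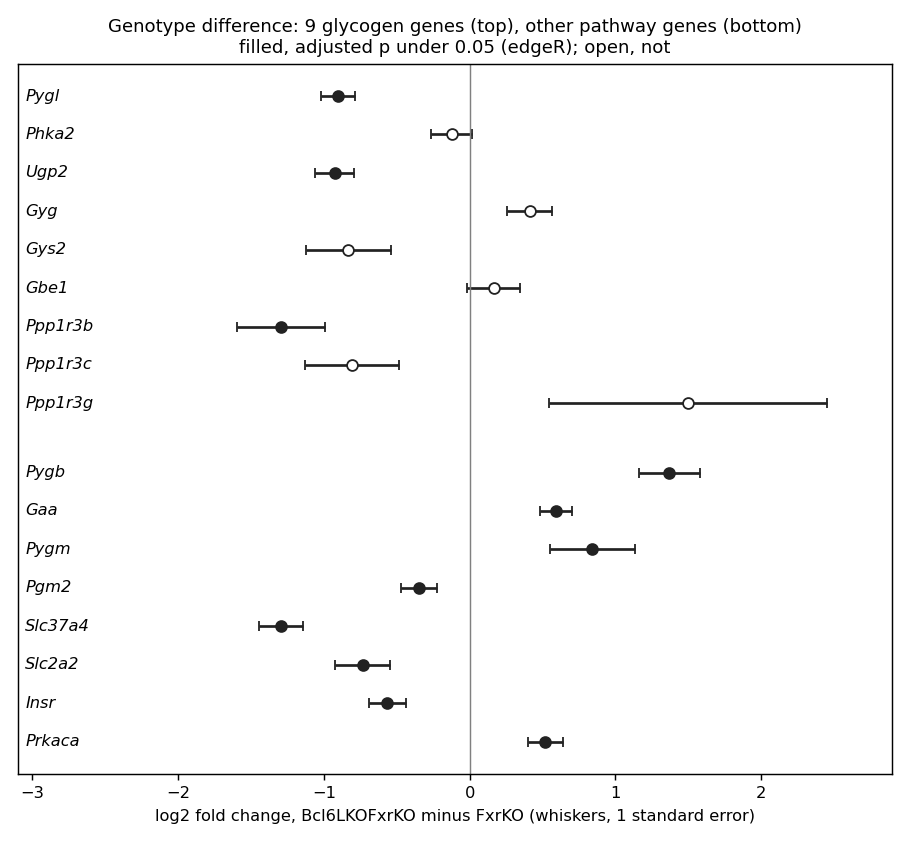
Log2 fold change (horizontal axis, *Bcl6LKOFxrKO* minus *FxrKO*) with 1 standard error from edgeR for the 9 glycogen genes above and 8 other pathway genes below, filled where the adjusted p was under 0.05. *Ppp1r3b*, *Slc37a4*, *Ugp2* and *Pygl* lie between -1.30 and -0.90, and *Pygb* and, open with the widest error, *Ppp1r3g* lie above 1 on the other side of 0.

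Genes that follow feeding were called in both directions beside the glycogen genes. Of 12 genes induced by fasting, 3 rose and 4 fell. Beside this list and the feeding and clock lists stand the 16.2% called higher and 13.5% lower over all genes tested. *Cpt1a*, the entry enzyme of fatty acid oxidation, fell to a log2FC of -0.89 (adjusted p = 0.00183), and *Pck1*, of gluconeogenesis, to -1.61 (0.00215), while *Fgf21*, a fasting hormone, rose from 0.26 ± 0.32 CPM, about the level of 3 counts, to 2.24 ± 0.95 CPM (0.00192, all from edgeR). Of 11 genes induced by feeding, 2 rose and 3 fell, among them *Scd1*, a fatty acid desaturase, at -1.49 (adjusted p = 7.8e-05), *Pklr*, liver pyruvate kinase, at -0.70 (0.00991) and *Pnpla3*, a lipid droplet protein, at 2.21 (0.010, all from edgeR). Called or not, 9 of these 11 had a negative log2FC and 2 a positive one (median -0.27). Of the 12 induced by fasting, 7 were negative and 5 positive (median -0.53). The feeding list summed to 7855 to 12391 CPM in *FxrKO* and 3714 to 4737 CPM in *Bcl6LKOFxrKO* livers. Most of that sum was *Scd1*, with means of 7678 and 2737 CPM. Of 16 tested clock genes, 2 fell, *Hlf* at -1.50 (adjusted p = 1.2e-04) and *Per2* at -1.57 (0.0468, both from edgeR). EdgeR, DESeq2 and limma voom called 0 clock genes higher, and 0 were higher at an unadjusted p under 0.05 in edgeR, against 21.8% of all genes tested. The part of feeding state or sampling hour in the fall of *Pygl*, *Ugp2* and *Ppp1r3b* was not tested. Lymphocyte markers summed to 3.23 to 5.37 CPM in *FxrKO* and 5.74 to 10.4 CPM in *Bcl6LKOFxrKO* livers, and 0 of these 9 markers were counted well enough to be tested. Muscle markers summed to 0.52 to 1.91 CPM over the 8 livers, with *Ckm* and *Myh4* at 0 counts in all of them.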

How the data were processed

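Liver RNA of 4 *FxrKO* and 4 *Bcl6LKOFxrKO* males was sequenced with 100 bp single-end reads from stranded mRNA libraries. The authors aligned them to the mm10 genome (STAR 2.5.2), allowing up to 4 mismatches and no second location, and HOMER 4.10 then counted exon reads. They deposited these counts without normalization, for 1 transcript of each gene together with its length. No strand option is stated. Groups follow the labels, which give no pairs or batches and name 1 library per male, so p-values measure the spread between these livers.

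Genotypes were compared in edgeR 4.0.16 under R 4.3.3 (filterByExpr, TMM, robust quasi-likelihood test, Benjamini-Hochberg over 12340 genes). CPM used the TMM factors. Exact permutation tests of mean CPM were two-sided over 70 orderings. Alternatives were DESeq2 1.42.0, limma voom 3.58.1 with quality weights, scaling by RLE or by total counts alone, TMM factors without the 50 most counted genes, testing every gene, a minimum of 10 counts in each library, and fits without single livers. A fit with log2(*Arntl* CPM + 1) was added after seeing the data. The code was tested on simulated counts with 200 changed genes. Floors of 3 counts cover counting error only.

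The 9 genes and all lists were chosen with earlier results of these data known. Genes were named by rule: the 9 genes, and of the other pathway lists the called genes with the smallest adjusted p, at most 4 per list; of feeding and clock lists at most 3. *Arntl* was outside the rule, and 2 genes that the rule gives are not reported here and were left out of the lists. Marker lists covered hepatocytes, cholangiocytes, stellate cells and fibroblasts, macrophages, endothelium, lymphocytes and muscle. Of 8 cholangiocyte markers 5 were tested and 2 were called higher, of 10 macrophage markers 9 and 2, of 7 endothelial markers 7 and 2. Of 10 hepatocyte markers 3 were called higher and 3 lower. The shares over all genes tested were 16.2% called higher and 13.5% lower. No pair of livers of 1 genotype agreed within sampling noise (chi-square per degree of freedom 10.8 to 49.9).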

Additional observations from a re-analysis of the deposited data

Results flagged for a closer look

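In *Bcl6LKOFxrKO* livers, liver 8 stood apart for *Pgm2*, at 284 CPM against 209.7 to 218 CPM in the other 3, a gap of 0.89 of the range of the 4 livers. Liver 7 stood apart for *Slc2a2*, at 152 CPM against 84.2 to 95.3 CPM, a gap of 0.84 of the range. Of 46 groups of 4 livers examined in this way (the 9 glycogen genes, the 8 other named genes of the pathway, the ratios, the shares and the total counts), these 2 passed Dixon's 95% limit, where chance gives about 2.3. No group of the 9 glycogen genes was among them.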

How the results depend on the processing

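*Pygl*, *Ugp2* and *Ppp1r3b* stayed called lower under all 16 alternatives, with each liver left out giving log2 fold changes of -0.96 to -0.86, -0.995 to -0.833 and -1.58 to -1.07. The number of glycogen genes called lower was 5 with DESeq2, with total counts alone and with the *Arntl* term, against 3, and 3 to 4 with single livers left out. The 5 with the *Arntl* term include *Gys2*, whose call follows from how *Arntl* was picked. The number called higher was 0 to 1 with single livers left out, the 1 being *Gyg* without liver 8. *Gys2* was called with DESeq2 (-0.84), with total counts alone (-0.99), without liver 1 or liver 2 and with the *Arntl* term (-0.67), which was picked to go with *Gys2* and is no support, and ranged from -0.997 to -0.676 with single livers left out. *Ppp1r3c* was called with DESeq2 (-0.81), with total counts alone (-0.96) and without liver 3 or liver 5, with a range of -1.07 to -0.55 with single livers left out. It was also called with the *Arntl* term (-0.91), which was added after seeing the data. *Gyg* ranged from 0.30 to 0.47. *Gbe1* ranged from -0.051 to 0.27 and reversed to -0.051 without liver 7. The cause of these changes was not tested, apart from total counts alone, which moved the median of all genes by -0.16 where the other settings moved it by at most 0.025 in size, and gave 1404 genes called higher and 2949 lower against 1994 and 1665. The count of other pathway genes called higher was 4, and 3 to 4 with single livers left out. The count called lower was 7 with total counts alone, against 4, and 3 to 4 with single livers left out. The 8 other named genes gave 22 lost calls over all alternatives, mostly *Pygm* and *Pgm2*. *Ppp1r3g* was not tested with at least 10 counts in every liver. No paired analysis was run, because the labels state no pairs and no library or title number in them is shared by 2 livers. Depth bears on *Ppp1r3g*, with as few as 5 counts in a liver, and no age, feeding state or hour is known for a liver.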
